A study of Mus musculus with 6 samples.

Results

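Cytoplasmic ribosomal protein genes encode the proteins of the cytosolic ribosome, and their transcripts were measured in TM3 cells with and without 4-nitrophenol. Members were the protein-coding mouse genes whose symbol is Rpl or Rps followed by a number, with Rplp0, Rplp1, Rplp2 and Rpsa, leaving out the Rps6k kinases, pseudogenes and predicted genes. The rule gave 85 genes with 151 probes, of 23462 genes with a named probe, and it used no measured value. The 85 genes lie on 19 chromosomes, with 14 on chromosome 7 and 8 on chromosome 17. A gene was tested if at least 1 of its probes exceeded background clearly on every array of 1 group and kept at least 2 usable values in each group. Of the 85 genes, 72 were tested, among 13138 genes in all.

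TM3 is a mouse line derived from Leydig cells, the steroid-producing cells of the testis, and the labels describe it as a somatic testicular line. The PNP group was kept in 10 µM 4-nitrophenol, or PNP, a breakdown product of the pesticide parathion that also occurs in diesel exhaust, for 24 h, and the control group was kept at 0 µM. Each group held 3 samples of total RNA, each on its own 1-colour Agilent array, and the 6 arrays shared 1 slide and 1 scan. All samples are of a single line, and nothing in the labels tells whether replicates were grown as separate cultures. The p-values therefore set a difference against the spread between these samples only, and that spread may be technical. Of 9 Leydig cell markers, 8 had a named probe: Star, Nr5a1 and Scarb1 were well above background on all 6 arrays, Cyp17a1 on 5 and Hsd3b1 on 1, while Cyp11a1, Lhcgr and Hsd17b3 were so on none. Of the markers of other cell types, 4 of 8 for Sertoli cells, 4 of 6 for leukocytes, 3 of 6 for germ cells, 4 of 4 for myoid cells, 0 of 4 for endothelial cells and 1 of 1 with a probe for erythroid cells were above background on all 6 arrays. In RNA from whole cultures, fewer cells with a transcript and less of it per cell cannot be told apart. Between 59.9% and 62.6% of spots per array were well above background, and no spot was saturated.

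A ribosome is built from a small 40S subunit, which reads the mRNA, and a large 60S subunit, which joins the amino acids. Each subunit combines ribosomal RNA with many proteins, most of them needed in equal numbers, and their genes are usually transcribed together at high levels in growing cells. Most of their mRNAs belong to the TOP class: they begin with a C followed by an unbroken run of pyrimidines, through which the growth-sensing kinase mTORC1 and the RNA-binding protein LARP1 govern their translation and stability.

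The following sequences show that start in members with runs of different length and in 2 without one, from 10 bases before to 20 bases from the RefSeq transcription start, in build GRCm38.p6. Capitals mark the unbroken run of pyrimidines (C or T) that begins with a C at the annotated start, and the last 2 sequences, from Rpl37 and Rpl10l, have no such run.
Rplp2, chr7:141447641-141447670, plus strand: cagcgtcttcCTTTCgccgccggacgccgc
Rps10, chr17:27635225-27635254, minus strand: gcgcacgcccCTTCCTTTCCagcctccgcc
Rps6, chr4:86857348-86857377, minus strand: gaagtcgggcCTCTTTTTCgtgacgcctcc
Rps18, chr17:33955646-33955675, minus strand: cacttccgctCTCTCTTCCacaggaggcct
Rpl28, chr7:4792955-4792984, plus strand: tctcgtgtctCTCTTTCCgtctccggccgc
Rpl15, chr14:18270967-18270996, minus strand: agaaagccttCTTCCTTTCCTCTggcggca
Rpl38, chr11:114668570-114668599, plus strand: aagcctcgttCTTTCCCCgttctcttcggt
Rpl37, chr15:5116603-5116632, plus strand: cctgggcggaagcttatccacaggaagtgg
Rpl10l, chr12:66284382-66284411, minus strand: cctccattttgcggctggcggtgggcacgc

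RefSeq promoter entries matched 65 of the 85 genes, with 77 starts. A C at the annotated start followed by at least 4 pyrimidines stood at 14 of 77 starts (18.2%), against 823 of 32851 starts of all genes (2.51%). A run of 8 pyrimidines within 25 bases on either side of the start was present at 45.5% of the ribosomal protein starts and 19.7% of all starts. GGAAG, the core bound by ETS factors such as GABP, was found on either strand in 93.5% of the 300-base ribosomal protein windows (250 bases before to 50 after the start) and 71.4% of all windows, and its complement CTTCC can overlap the pyrimidine runs. These matches describe letters at annotated starts, and a start that is off by 1 base hides a run.

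No ribosomal protein gene passed the test for a difference between PNP-treated and control cells. With limma and Benjamini-Hochberg adjustment over all 13138 genes, 0 of 72 had an adjusted p below 0.05, and the share over all genes was also 0%. At an unadjusted p below 0.05 there was 1 member, Rplp2 (1.39% of 72), against 6.52% of all genes, and the count differed with slide row as a block, as given with the slide positions. The log2 difference, PNP minus control, was positive in 62 of the 72 members (86.1%), against 63% of all genes, but in only 15 of 72 after quantile normalization. Its median was 0.11 over members (middle range from 0.05 to 0.16, extremes -0.81 and 0.24), against 0.04 over all genes. The intervals were narrow: the median 95% interval of a member reached 0.25 on either side of its log2 difference, or 1.19-fold. The whole interval lay within 1.5-fold in either direction for 70 of 72 members (97.2%), against 84.4% of all genes, and within 2-fold for 98.6% of members and 97.9% of all genes. The exceptions at 1.5-fold were Rpl37 and Rpl10l, both among the dimmest tested members, and Rpl37 was also the exception at 2-fold. The plot of differences with their intervals shows this evenness in both subunits.

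**Figure D1:**
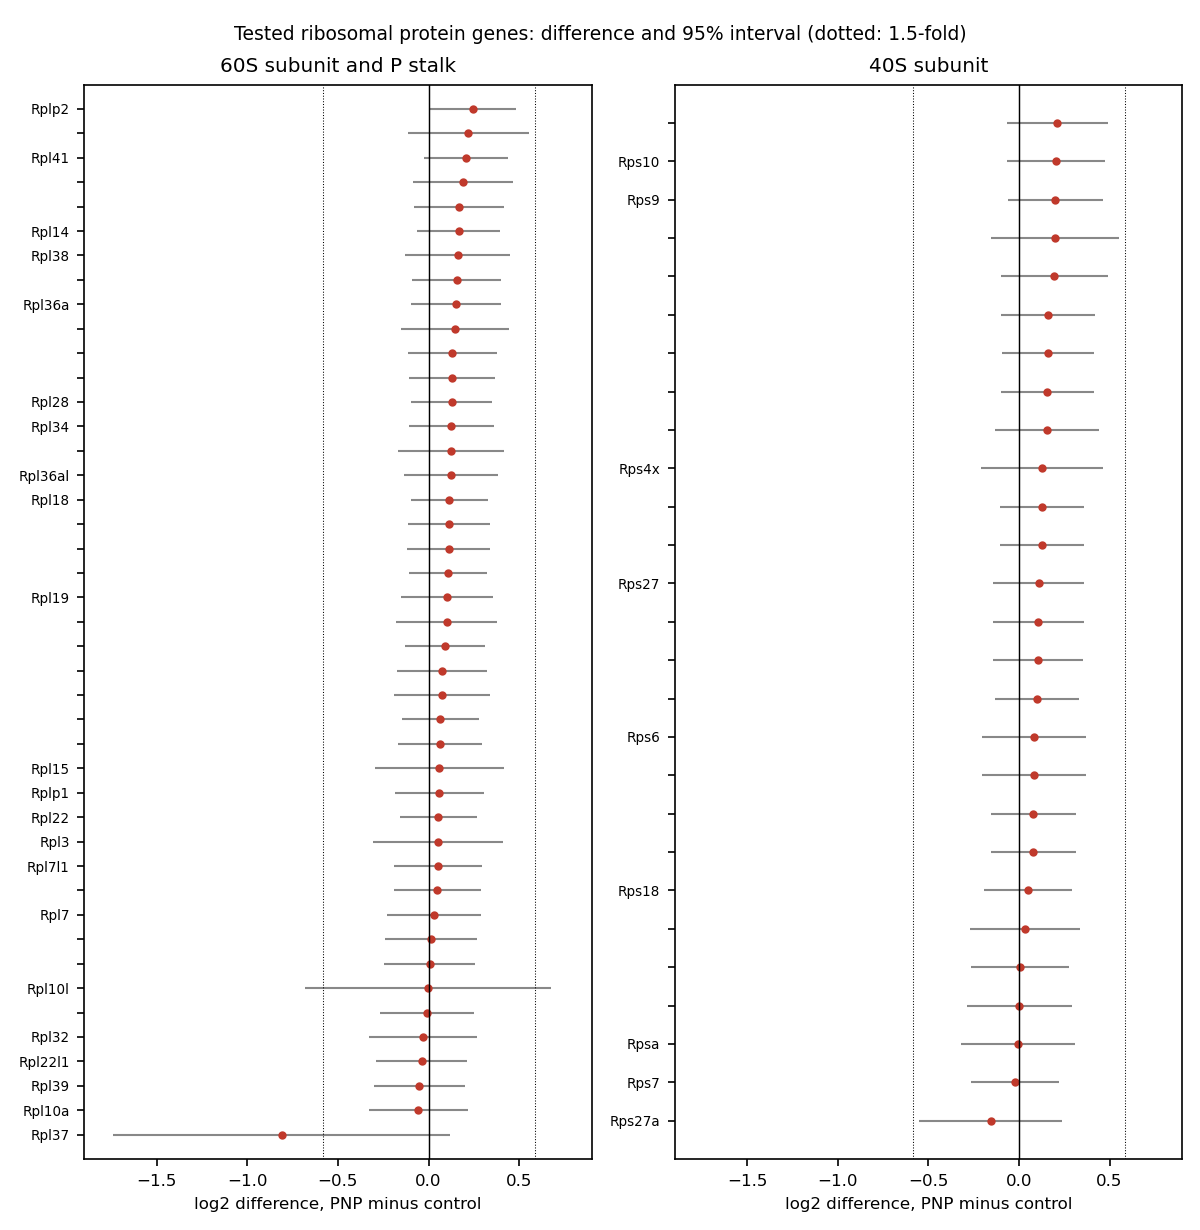
Log2 difference, PNP minus control, of 70 of the 72 tested ribosomal protein genes, the other 2 not being drawn (points, with names for the genes described in the text) with its 95% interval from limma (lines), 60S subunit and P stalk on the left and 40S subunit on the right. The dotted lines mark 1.5-fold in either direction. The points crowd between 0 and 0.24, the intervals of 68 of the 70 genes stay within the dotted lines, and Rpl37 lies far to the left with a wide interval.

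Every probe value below is a scaled log2 signal, the log2 processed signal minus that array's 75th percentile, and compares arrays for 1 probe, since probes differ in how well they bind. Many ribosomal protein genes have processed pseudogene copies of nearly the same sequence, so a probe may also have read those, and their share in the signals was not tested.

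The P stalk is the flexible arm of the 60S subunit that calls in the elongation factors, with Rplp0 as its base and pairs of Rplp1 and Rplp2 as its tips. Rplp2 had signals of 3.70, 3.61 and 3.42 on the 3 PNP arrays and of 3.37, 3.31 and 3.32 on the 3 control arrays. All 3 PNP values lay above all 3 control values, with PNP 3 close to control 1. The log2 difference of Rplp2 was 0.24 (SE 0.10, 95% interval from 0.01 to 0.48), with an unadjusted p of 0.0447 and an adjusted p of 0.754 in limma, and it was 0.08 under quantile normalization and 0.10 as deposited by the authors. Its partner Rplp1 had no usable value on PNP 1, 3.21 and 3.22 on PNP 2 and PNP 3, and 3.23, 3.10 and 3.13 on the controls. The groups overlapped for Rplp1, and the log2 difference fitted from these 5 values was 0.06 (SE 0.11). Rplp0 was well above background on all 6 arrays but its spots on PNP 1 and PNP 2 were marked as outliers by the scanner software, so it was not tested. With such spots kept, Rplp0 had 3.95, 3.90 and 3.82 on PNP arrays and 3.76, 3.58 and 3.59 on control arrays. The PNP values were again all higher, and the log2 difference was 0.24 (SE 0.10, adjusted p = 0.836 in limma). The single genes are drawn in the plot of signals by array.

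Among the 42 tested genes of the 60S subunit, 35 differences were positive and 7 negative, with a median of 0.10. Rpl41, which encodes the smallest ribosomal protein, had 4.22, 4.06 and 4.03 with PNP and 4.00, 3.83 and 3.85 in controls. PNP 1 was the highest array and control 2 the lowest, and the groups did not overlap, though PNP 3 and control 1 were close. The log2 difference of Rpl41 was 0.20 (SE 0.10, adjusted p = 0.808 in limma), and it was -0.04 after quantile normalization. Rpl41 had a second tested probe, with a difference of 0.03.

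The lowest difference of any member was that of Rpl37, a small zinc-binding protein of the 60S subunit. Rpl37 had -3.85, -3.46 and -4.00 with PNP, and -2.80, -3.96 and -2.11 in controls. Control 2 fell among the PNP values while control 1 and control 3 stood above them, so the groups overlapped. The log2 difference was -0.81 (SE 0.40, 95% interval from -1.74 to 0.12, adjusted p = 0.811 in limma). It rested on the controls: without control 3 it was -0.39 and without control 2 it was -1.31, and neither passed the test. Rpl37 had 1 probe, with 1 spot per array, so no other measurement of it was at hand. Its signal was among the dimmest of the tested members. The next negative 60S members in order of p had differences near 0, with unadjusted p from 0.638 to 0.821 in limma. The differences were -0.06 (SE 0.12) for Rpl10a, -0.05 (SE 0.11) for Rpl39, -0.04 (SE 0.11) for Rpl22l1 and -0.03 (SE 0.12) for Rpl32. All 4 lacked a value on PNP 1. Rpl39, which lines the tunnel through which the new protein leaves, had 3 tested probes, whose differences were -0.05, 0.10 and 0.16.

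Of the 28 tested genes of the 40S subunit, 25 differences were positive and 3 negative, with a median of 0.11. Rps9, at the entry of the channel through which the mRNA is threaded, had 3.73, 3.48 and 3.39 with PNP and 3.42, 3.28 and 3.31 in controls. Rps10, a 40S protein that is ubiquitinated when ribosomes stall, had 4.09, 3.78 and 3.72 with PNP and 3.71, 3.64 and 3.63 in controls. The groups of Rps9 overlapped at PNP 3 and control 1, and those of Rps10 did not, with PNP 3 the closest to the controls. The log2 difference was 0.20 (SE 0.11, adjusted p = 0.847 in limma) for Rps9 and 0.21 (SE 0.12, adjusted p = 0.850 in limma) for Rps10. Without PNP 1 they were 0.10 for Rps9 and 0.09 for Rps10, and after quantile normalization 0.04 for Rps9 and 0.01 for Rps10.

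Rps6, the protein that S6 kinases phosphorylate downstream of mTORC1, had 3.60, 3.27 and 3.22 with PNP and 3.38, 3.18 and 3.28 in controls. Only PNP 1 stood above the controls, and the log2 difference was 0.08 (SE 0.12). Rps27a is made as a fusion with ubiquitin, and its tested probe had -3.33, -2.70 and -3.32 with PNP and -2.92, -3.04 and -2.93 in controls. PNP 2 was above all controls and the other PNP arrays below them, giving a difference of -0.16 (SE 0.17). A second, brighter Rps27a probe lost its spots on PNP 1 and PNP 3 as outliers and had a difference of 0.13 with such spots kept. Rps7 had -0.02 (SE 0.10).

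**Figure D2:**
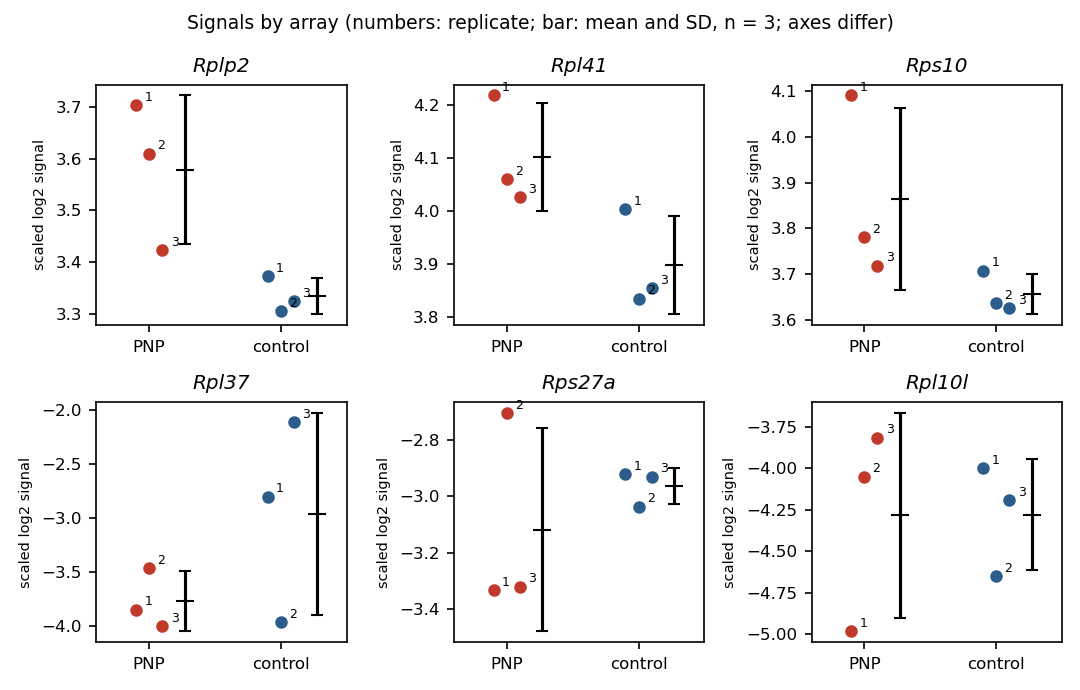
Scaled log2 signals of 6 ribosomal protein genes on each array, with PNP arrays in red on the left of each panel and control arrays in blue on the right. Numbers give the replicate, bars the mean and SD of the 3 arrays, and each panel has its own vertical axis. Rplp2, Rpl41 and Rps10 are higher on all 3 PNP arrays than on any control, by a narrow margin at PNP 3, while the groups overlap in Rpl37, Rps27a and Rpl10l.

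Some ribosomal proteins have paralogues that replace them in certain tissues. Rpl10l, a copy of the X-linked Rpl10 that mouse germ cells use during meiosis, had -4.98, -4.05 and -3.82 with PNP and -4.00, -4.65 and -4.19 in controls. PNP 1 was the lowest of the 6 and PNP 3 the highest, and the difference was -0.00 (SE 0.30). Rpl3l, the striated-muscle form of Rpl3, and Rpl39l, the male germ cell form of Rpl39, did not rise well above background in any sample. Rpl22, the parent of Rpl22l1, had a difference of 0.05 (SE 0.09). Rpl7l1 had 0.05 (SE 0.10) with no value on PNP 3, and Rpl7 had 0.03 (SE 0.11) with none on PNP 1. Rpl36al had 0.12 (SE 0.11) with no value on PNP 1. Rpl36a had 0.15 (SE 0.11), and its second tested probe had -0.02. None of these passed the test, and the parents Rpl3 (0.05, SE 0.16), Rps27 (0.11, SE 0.11) and Rps4x (0.13, SE 0.14) did not either. The second tested probes of Rpl3 and Rps27 had 0.18 and 0.03, and Rps4x had no value on PNP 1. The 3 members with the widest range over the arrays of a group were Rpl37, Rpl10l and Rps27a.

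The 6 arrays differed among themselves in the same way for nearly all ribosomal protein genes. Taking each of the 47 members with 6 values relative to its own mean, the median deviation was 0.22 on PNP 1, 0.01 on PNP 2 and -0.04 on PNP 3, and it was 0.00 on control 1, -0.13 on control 2 and -0.07 on control 3. PNP 1 alone stood clearly above the rest, and PNP 3 fell below control 1. The same medians over all genes were 0.08, 0.00 and 0.01 on the PNP arrays and 0.01, -0.04 and -0.05 on the controls. PNP 1 was the highest of the 6 arrays in 43 of 47 members (91.5%), against 36.9% of all genes. Control 2 was the lowest in 39 of 47 (83%), against 22.5% of all genes. In both subunits PNP 1 had the highest median and control 2 the lowest, with medians on PNP 1 of 0.20 over 27 genes of the 60S subunit and 0.25 over 19 of the 40S subunit.

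**Figure D3:**
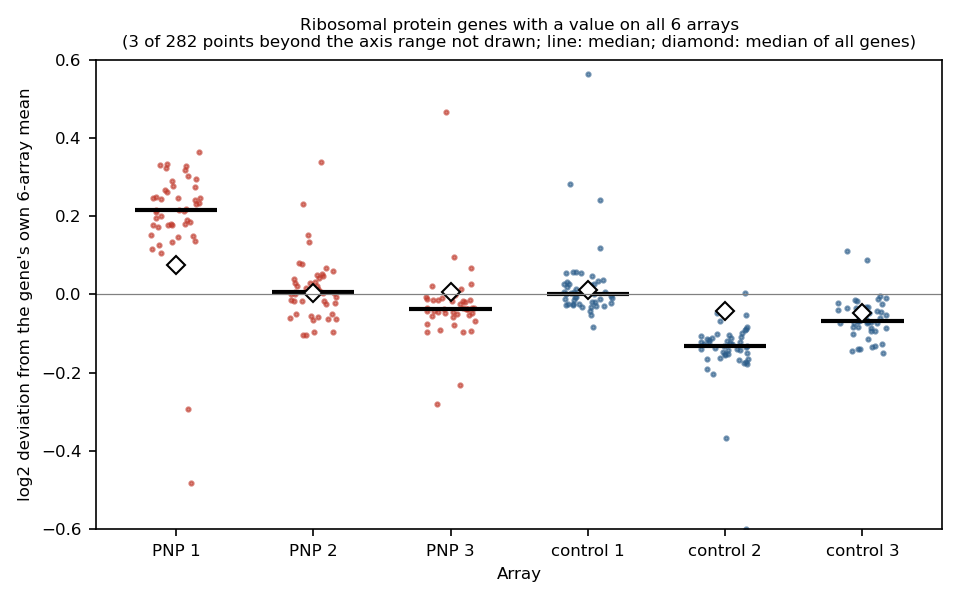
Log2 deviation of each ribosomal protein gene from its own mean over the 6 arrays (points, 47 genes with 6 values), by array, PNP in red and control in blue. Lines mark the median over these genes and diamonds the median over all genes. PNP 1 has a median of 0.22 and control 2 one of -0.13, while PNP 2, PNP 3 and control 1 lie near 0.

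In 8 of these 47 members (17%) the 3 PNP values all lay above the 3 control values, against 9.15% of all genes, and in 0 of 47 they all lay below, against 2.3%. Among the 8 were Rplp2, Rpl41, Rpl14, Rpl28, Rpl18, Rpl34 and Rps10. Signal strength went along with these counts. Of the 72 tested members, 67 fell in the brightest 10% of the tested genes, and among the other genes of that 10% the share with all PNP values above all controls was 16.5%. PNP 1 was the highest array in 79.8% of those genes and control 2 the lowest in 54.3%. The median log2 difference of the 1247 genes of the brightest 10% that are not members was 0.10, beside 0.11 for the members, and their share of positive differences was 88.6%, beside 86.1%. Over all tested genes, the median difference, in steps of 10% of the genes by brightness, was 0.10 in the dimmest step, between 0.01 and 0.02 from the fourth to the eighth, and 0.10 in the brightest.

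The member medians also moved with the scaling of the arrays. When arrays were scaled on their median the member median was 0.04, with all genes at -0.02 and 50 of 72 members positive. After quantile normalization it was -0.05, with all genes at 0.01 and 15 of 72 members positive. In the authors' deposited normalized values it was -0.03 over 83 members, with all genes at 0.00 and 26 members positive. Relative to all genes, the members were thus higher by 0.06 as scaled here and on the array median, while the difference was -0.06 under quantile normalization and -0.04 for the authors' values. Quantile normalization left member medians of -0.01, -0.09 and 0.01 on the PNP arrays and -0.01, 0.05 and 0.01 on the controls. PNP 1 no longer stood apart, and control 2 was then the highest. The sign of the member median thus differed between scalings, and none of the settings called a member. The part that signal strength had in the shift was not tested.

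**Figure D4:**
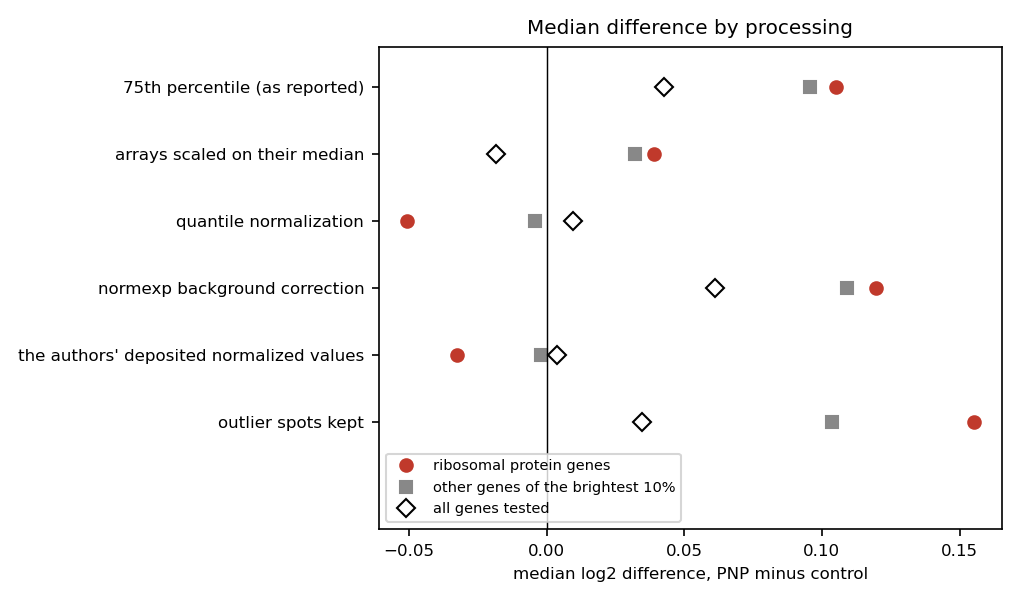
Median log2 difference, PNP minus control, of the ribosomal protein genes (red circles), the other genes of the brightest 10% (grey squares) and all tested genes (open diamonds) under 6 ways of processing the arrays. The ribosomal protein median lies to the right of 0 in 4 of them and to the left for quantile normalization (-0.05) and for the authors' values (-0.03).

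Spots marked as outliers by the scanner software were much more common among ribosomal protein probes than among all non-control spots, and common among bright spots in general. Of 691 spots for members on each array, 72.6%, 59.3% and 35.5% were marked on PNP 1, PNP 2 and PNP 3, and 33.4%, 19.8% and 34.9% on control 1, control 2 and control 3. PNP 1 and PNP 2 stood above the other 4 arrays, and control 2 below them. Among all non-control spots the share reached at most 13.2% on a PNP array and lay between 6.53% and 9.07% on the controls. Over the 6 arrays together 42.6% of member spots were marked, against 35.1% of the brightest 10% of spots and 10% of all spots. With these spots left out, 78, 45 and 29 of the 151 member probes had no usable value on the PNP arrays, and 29, 19 and 34 had none on the controls.

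**Figure D5:**
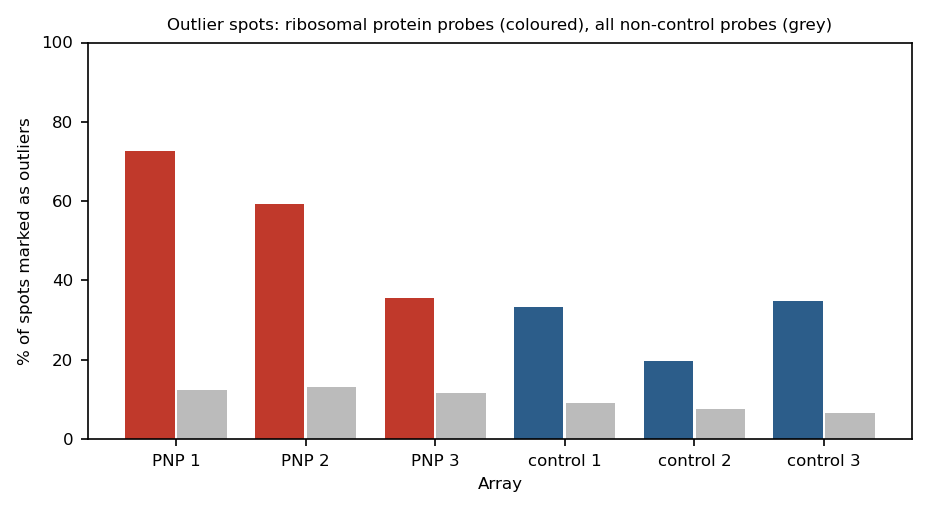
Percent of spots marked as outliers on each array, for the 691 spots of ribosomal protein probes (coloured bars, PNP red and control blue) and for all non-control spots (grey bars). The member share is highest on PNP 1 (72.6%) and lowest on control 2 (19.8%).

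Which members kept a value on PNP 1 moved with their difference. The 53 tested members with a PNP 1 value had a median of 0.12, with 50 positive. The 19 without it, among them Rplp1, Rpl10a, Rpl39, Rpl32, Rpl22l1 and Rps7, had a median of 0.01, with 12 positive. Over all genes the same split gave a median of 0.05, with 63.6% positive, for genes with a PNP 1 value and of 0.00, with 50.7% positive, for genes without it. Members without PNP 1 were compared without the highest array, and the reason for their lower median was not tested.

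With outlier spots kept, 83 of the 85 members could be tested, and again 0 were called, with 0 called over all 15046 genes. The member median was then 0.16, against 0.03 over all genes, and 78 of 83 were positive (94%), against 60.4% of all genes. The other genes of the brightest 10% had a median of 0.10 in this setting, with 90.4% positive. An unadjusted p below 0.05 was reached by 5 members (6.02%), Rpl10, Rplp0, Rpl5, Rplp2 and Rpl19, against 5.93% of all genes. All 3 PNP values lay above the controls in 11 of 83 members (13.3%), against 8.07% of all genes. Without PNP 1 this median was 0.09, without control 2 it was 0.12, and after quantile normalization it was -0.02.

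The 11 members that keeping outlier spots added were Rpl4, Rpl5, Rpl10, Rpl11, Rpl21, Rpl23, Rplp0, Rps2, Rps12, Rps25 and Rps27l. Rpl10, which joins last and completes the 60S subunit, had the smallest p of them, with 4.01, 3.87 and 3.76 on PNP arrays and 3.61, 3.44 and 3.45 on controls. The groups did not overlap, and the log2 difference was 0.38 (SE 0.11, adjusted p = 0.836 in limma). The Rpl10 values on PNP 1 and PNP 2, the highest of the 6, came from spots marked as outliers. Rpl5 and Rpl11 travel with the 5S ribosomal RNA as a particle that, when ribosome assembly fails, binds MDM2 and raises p53. Rpl5 had 3.47, 3.53 and 3.16 with PNP and 3.06, 2.96 and 3.22 in controls, and Rpl11 had 3.59, 3.76 and 3.27 with PNP and 3.33, 3.20 and 3.20 in controls. In both genes PNP 1 and PNP 2 were above the controls and PNP 3 was among them. In Rpl11 the PNP 1 and PNP 2 values came from marked spots, and Rpl5 too had too few unmarked values to be tested without such spots. The differences were 0.31 (SE 0.13) for Rpl5 and 0.29 (SE 0.14) for Rpl11. Rps25 ran the other way with -0.10 (SE 0.15).

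The repeated spots of the array gave a measure of the error within an array. There were 60 member probes with 10 spots per array, for 48 genes. The median SD among spots of a probe on 1 array was 0.0640 on the log2 scale, and over the 54 tested ones the median SD between arrays was 0.133 within the PNP group and 0.0666 within the control group. The spot value is an SD of single spots, while the array values are SDs of means over the usable spots, so they are unlike measures. Among probes with enough unmarked spots, the median SD of spots was 0.100 on PNP 1 (23 probes) and 0.0532 on control 2 (57 probes). These are different sets of probes, left after unequal removal of marked spots. Spots marked as outliers were brighter than the unmarked spots of the same probe and array by a median of 0.07, 0.23 and 0.13 on the PNP arrays and of 0.18, 0.04 and 0.04 on the controls. Of 26 members with more than 1 tested probe, 18 had all probes on the same side of 0, and the median spread between probes of a gene was 0.08.

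The arrays also differed in their place on the slide. PNP 1 and the 3 controls lay in the upper row of the slide, and PNP 2 and PNP 3 in the lower row. Within the upper row, the member median of PNP 1 minus the controls was 0.28 over 53 genes, with all genes at 0.10. Among arrays in odd slide columns (PNP 2 against control 1 and control 3) the member median was 0.01, with 40 of 70 positive and all genes at 0.01. Among arrays in even columns (PNP 1 and PNP 3 against control 2) it was 0.20, with 66 of 71 positive and all genes at 0.08. The even columns held the array with the highest member signals and the one with the lowest, and in the odd columns the member median was close to that of all genes. With outlier spots kept the odd columns gave 0.10, with 60 of 83 positive and all genes at 0.01, and the even columns 0.25, with 81 of 83 positive and all genes at 0.07. In limma with slide column parity as a block, 0 of 72 members had an unadjusted p below 0.05, against 8.25% of all genes. With slide row as a block, which sets PNP 1 against the controls, 27 of 53 members did, against 9.26% of all genes, and 0 members and 0 genes passed after adjustment in limma.

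The 14 members with a pyrimidine run at the annotated start, had a median difference of 0.11, and all 14 were positive. Of those printed above, Rpl38 had 0.16 (SE 0.13), Rpl28 0.13 (SE 0.10), Rpl15 0.06 (SE 0.15) and Rps18 0.05 (SE 0.11). Of the other 51 members with a promoter entry, 39 were tested, with a median of 0.11 and 31 positive. The medians of members with and without the annotated run were equal at this precision. Among genes outside the rule whose mRNAs are also known as TOP mRNAs, 16 were tested, 15 were positive and 0 passed, with a median of 0.12. Npm1, a nucleolar chaperone of ribosome assembly, had 0.23 (SE 0.12) with no value on PNP 3. Pabpc1, the poly(A)-binding protein, had 0.17 (SE 0.10) with a value on every array. The elongation factor subunit Eef1b2 had -0.06 (SE 0.11) with no value on PNP 1.

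Genes that act on ribosome synthesis were described by the same counts, with the median of all genes at 0.04. Of 14 tested regulators, 8 were positive and 6 negative, with a median of 0.02 and 0 past the threshold. They included the cap-binding factor Eif4e at 0.14 (SE 0.09) and its inhibitor Eif4ebp1 at 0.14 (SE 0.12), both positive, and the DNA-binding subunit of GABP, Gabpa, at -0.21 (SE 0.14). RNA polymerase I, which makes the large ribosomal RNA precursor, had 8 of 15 subunits and factors positive, with a median of 0.01. Of 36 tested factors of small subunit assembly, 12 were positive and 24 negative, with a median of -0.02. Among them Tsr1, a late 40S assembly factor, had -0.35 (SE 0.13, adjusted p = 0.740 in limma), and Fbl, the rRNA methyltransferase fibrillarin, had 0.18 (SE 0.12). Of 45 factors of large subunit assembly, 22 were positive and 23 negative, with a median of -0.00, as in Wdr12 (0.14, SE 0.11) and the large remodelling ATPase Mdn1 (-0.28, SE 0.16). The 16 nucleolar factors had a median of 0.00, with Tcof1, a cofactor of ribosomal RNA transcription, at -0.22 (SE 0.11). The 5S RNP and p53 list had 6 tested genes, 4 positive, with Mdm2 at 0.06 (SE 0.09) and Trp53 at -0.05 (SE 0.15). None of these lists held a gene past the threshold. The lists were read under the main scaling only and were not set beside genes of like brightness. With arrays scaled on their median, the median of all genes was -0.02.

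For comparison, the mitochondrial ribosomal protein genes had a median of 0.07 with 51 of 58 positive, and the proteasome subunit genes, which also encode a large complex, had a median of 0.06 with 22 of 28 positive. Neither held a gene past the threshold, and the difference between these lists and the cytoplasmic ribosomal protein genes was not tested. In both lists, as in the members, PNP 1 had the highest median deviation and control 2 the lowest. The values were 0.12 and -0.08 over 51 mitochondrial ribosomal protein genes. Over 15 proteasome genes they were 0.15 and -0.062, with control 3 close at -0.057.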

How the data were processed

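Total RNA of 6 TM3 samples was hybridised to 1-colour Agilent mouse arrays. The deposited scanner files hold intensity values made with Agilent Feature Extraction 11.5.1.1 per the file headers (10.7 per the submitters' processing notes), with background and spatial trends corrected and arrays unscaled. The dye is Cy3 in the labels but the columns are of the red channel, which is not settled. The authors also deposited normalized log2 values. Their sorted columns agree to within 0.000955, the mark of quantile normalization, and their processing steps are not given in the sources used here.

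Each value was log2 of the processed signal less the 75th percentile of the non-control probes on that array. Spots with a non-uniformity or population outlier mark were dropped and the other spots of a probe averaged, so a fit leaves out an array on which a probe has no usable spot. Probes were named by unversioned RefSeq accession (33767 of 56605, GRCm38.p6), in place of the gene names the design had assumed, and each gene was read from its brightest tested probe. Fits used limma 3.58.1 under R 4.3.3, with files read by the package data.table (1.17.8), and consisted of lmFit and eBayes, two-sided, no covariates, Benjamini-Hochberg adjustment over 13138 genes and a threshold of 0.05. The fit was tested on simulated data. Normexp (offset 50) took median signals and backgrounds, since mean signals were not at hand. Precision is limited by the number of arrays.

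The members and gene lists were chosen with earlier results of these data known. The genes named were Rplp0, Rplp1, Rplp2, Rpl37, Rpl5, Rpl11, Rps6, the members of smallest p in each direction, paralogues with their parents, the 3 members of widest range, and up to 2 in each direction from every other list. Members whose groups did not overlap, those brought in by keeping outlier spots and the start sequences were picked after values were seen. Alternatives were other scalings, background correction, filters, probe rules, blocks, the authors' values and leaving out each array. Some genes that the rule for names would give are not reported here.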

Additional observations from a re-analysis of the deposited data

How the results depend on the processing

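No ribosomal protein gene passed the threshold under any of 17 alternatives or of 4 more chosen after seeing the data. The median log2 difference of the members was positive in 15 of the 17. It moved by more than the SD between arrays (0.106) in 4 settings, to -0.051 after quantile normalization, -0.032 in the authors' values, 0.28 with slide row as a block (53 genes, all genes at 0.10) and -0.024 with outlier spots kept and quantile normalization, one of the later choices. Leaving out 1 array gave from 0.041 (without PNP 1) to 0.15 (without PNP 3). The count of members whose groups did not overlap was 8 of 47, all with PNP above. It was 1 of 47 with arrays scaled on their median and 1 of 47 after quantile normalization (0 with PNP above, 1 below). It was 16 of 47 with normexp (all with PNP above) and 5 of 83 in the authors' values (2 above, 3 below). Leaving out 1 array gave from 8 to 28 of these, with 25 of 48 without PNP 3 and 28 of 47 without control 1. From 47 to 61 members had all values in these fits. Separation is easier with fewer arrays, and the part this had in the counts was not tested. The shares over all genes in these settings are not given here, so none of these counts is read as a result about the members. Over all genes the count past the threshold, 0, was 1 with slide column parity as a block, from 0 to 1 with 1 array left out (1 without PNP 2, 1 without control 2), and 1 with outlier spots kept and control 2 left out. The cause of these changes was not tested.

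Single named genes changed sign in 45 of 383 values over 23 genes and 17 settings, with none past the threshold. With arrays scaled on their median the values were -0.028 for Rplp1, -0.0062 for Rpl22, -0.0068 for Rpl3 and -0.059 for Rpl7. After quantile normalization they were -0.0012 for Rplp1, -0.039 for Rpl41, -0.091 for Rpl22, -0.15 for Rpl3, -0.082 for Rpl7, -0.027 for Rps27 and -0.054 for Rps6. In the authors' values they were -0.096 for Rplp1, -0.0035 for Rpl41, -0.083 for Rpl22 and Rpl36a, -0.12 for Rpl3, -0.013 for Rpl36al and Rpl7l1, -0.026 for Rps27 and -0.051 for Rps6. With normexp they were 0.036 for Rpl10a, 0.040 for Rpl10l, 0.017 for Rpl39 and 0.056 for Rpl32. With outlier spots kept they were 0.13 for Rps27a, 0.084 for Rpl10a, 0.16 for Rpl39 and 0.071 for Rpl32. The mean of all probes gave 0.085 for Rpl39, and slide column parity as a block gave 0.15 for Rpl10l. Leaving out 1 array gave from -0.24 to 0.35 for Rpl10l, -0.023 to 0.19 for Rpl3, -0.035 to 0.15 for Rps6, -0.085 to 0.0084 for Rpl22l1, -0.072 to 0.015 for Rpl32, -0.10 to 0.0070 for Rpl10a and -0.015 to 0.075 for Rpl7.

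The replicate numbers follow the order of the samples within each group. Deviations of same-numbered samples correlated at -0.31, -0.22 and -0.03 over 11110 genes, and those of differently numbered samples at -0.02 to 0.27. Such correlations can also come from differences between arrays, so they cannot decide whether the samples were paired. With the replicate block the member median was 0.11, 0 members and 0 genes passed, and Rpl10a was 0.0070.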
